A study of Mus musculus with 8 samples.

Results

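This comparison set microglia of icKO mice with experimental autoimmune encephalomyelitis (EAE) against microglia of naive icKO mice. It used 2 of the 8 arrays of the series, 1 for each of the 2 conditions, and 16471 of the 30702 genes that could be named on the array. Those genes had a brightest probe set above the array's median of named probe sets on at least 1 of the 2 arrays. Levels are given as log2(intensity + 16), and a difference is the level on the icKO EAE array minus the level on the icKO naive array. With 1 array per group there was no replicate, so no error, interval or test accompanies any value, and the precision of every value was limited by the number of arrays.

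The series held microglia from mice of strain C57Black/6J in 2 genotypes, each in 4 states: naive, EAE, EAE treated with iguratimod, and EAE p50. The icKO mice carry a conditional knockout that the series title directs at oligodendroglia. The controls carry the labels FL or F/F, and the labels do not say what p50 means. For this comparison the icKO pair therefore shared its genotype and strain and differed in naive against EAE, while the control pair, used beside it, came from other arrays. The Cre driver, the time of deletion, the immunising antigen, the day of disease, the number of animals behind an array and the way the microglia were isolated are not given in the sources used here.

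EAE is induced by immunising an animal against a myelin antigen, so that T cells and myeloid cells enter the central nervous system and damage myelin. Microglia, the resident macrophages of the brain and spinal cord, respond to the cytokines of these cells, interferon-gamma among them, by displaying antigen on major histocompatibility complex (MHC) class II molecules, releasing chemokines and taking up debris. Oligodendrocytes, the cells that make myelin, are coupled to one another and to astrocytes by gap junctions. The RNA came from microglia, not from the cells at which the deletion was directed.

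Array medians over the series lay between 243 and 269 on the deposited intensity scale, with 251.6 on the icKO naive and 247.5 on the icKO EAE array. No detection call was used, so a dim gene could not be told from an absent one. Markers of microglia were bright on both icKO arrays: Cx3cr1 lay at 18.27 and 18.15, Csf1r at 15.81 and 15.54, and Siglech at 17.05 and 16.12, naive first. For some of the brightest genes the scaling mattered: quantile normalization moved the difference of Cx3cr1 from -0.13 to -0.75, that of Siglech from -0.92 to -1.65, that of the adaptor Tyrobp from 0.12 to -0.47, that of the phosphatase Dusp1 from -0.38 to -1.08 and that of the protease Ctsb from 1.88 to 1.17. Defining markers of neurons, such as Snap25, and of oligodendroglia, such as Mbp and Mog, lay below the brightness threshold on both arrays. Of the 7 oligodendroglial markers on the array only Mag passed it, at 8.42 and 8.44, against thresholds of 8.17 and 8.16.

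Short stretches of promoter are shown here for 8 genes: 6 from the antigen presentation and interferon groups described below, which held many of the genes that were higher in EAE, and Fcgr4 and Cybb, which belong to the Fc receptor and NADPH oxidase lists and were among the 15 highest differences. The 8 were picked from genes that carry the string marked in capitals, and shares over all genes follow the values. The sequences are RefSeq sequences of mouse build GRCm38.p6, the 150 bases before the transcription start, written 5′ to 3′ on the strand of the gene. Capitals in the first 3 mark ATTGG, or CCAAT where it lies on the other strand, the core of the Y box that MHC class II promoters are known to carry. H2-Eb1, H2-Aa and H2-DMb1 encode a chain of I-E, a chain of I-A and a chain of the peptide exchanger H2-M.
H2-Eb1: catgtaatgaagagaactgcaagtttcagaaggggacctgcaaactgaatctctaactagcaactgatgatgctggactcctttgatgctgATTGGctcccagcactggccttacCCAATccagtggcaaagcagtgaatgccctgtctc
H2-Aa: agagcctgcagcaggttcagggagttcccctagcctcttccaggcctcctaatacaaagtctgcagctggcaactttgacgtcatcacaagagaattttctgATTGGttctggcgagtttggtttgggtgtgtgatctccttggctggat
H2-DMb1: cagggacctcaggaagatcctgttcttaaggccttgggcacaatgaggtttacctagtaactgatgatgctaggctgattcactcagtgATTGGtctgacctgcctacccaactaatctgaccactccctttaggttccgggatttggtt
The windows were chr17:34305717-34305866 for H2-Eb1 on the plus strand, chr17:34287824-34287973 for H2-Aa on the minus strand and chr17:34153041-34153190 for H2-DMb1 on the plus strand.

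In the next 5 sequences capitals mark GAAANNGAAA on either strand, the core of the interferon-stimulated response element, which is bound by factors that act after interferon receptors. Gbp2 encodes a guanylate-binding protein, Fcgr4 an activating receptor for immunoglobulin G, Ifi207 and Ifi211 members of the p200 family, and Cybb the catalytic subunit of the phagocyte NADPH oxidase.
Gbp2: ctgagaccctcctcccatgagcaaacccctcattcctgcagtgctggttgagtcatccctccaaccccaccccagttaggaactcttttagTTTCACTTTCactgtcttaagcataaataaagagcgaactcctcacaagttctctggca
Fcgr4: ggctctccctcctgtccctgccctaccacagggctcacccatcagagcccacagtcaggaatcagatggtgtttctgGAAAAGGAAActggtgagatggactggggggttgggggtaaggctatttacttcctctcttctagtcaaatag
Ifi207: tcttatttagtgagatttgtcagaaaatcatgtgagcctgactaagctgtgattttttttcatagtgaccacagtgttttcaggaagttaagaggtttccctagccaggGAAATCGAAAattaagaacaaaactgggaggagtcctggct
Ifi211: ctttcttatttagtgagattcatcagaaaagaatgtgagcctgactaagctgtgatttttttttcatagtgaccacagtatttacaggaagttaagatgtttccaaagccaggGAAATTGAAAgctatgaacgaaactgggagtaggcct
Cybb: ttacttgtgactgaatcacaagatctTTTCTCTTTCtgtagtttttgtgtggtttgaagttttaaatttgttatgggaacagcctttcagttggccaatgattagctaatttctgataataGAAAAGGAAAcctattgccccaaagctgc
The windows were chr3:142620513-142620662 for Gbp2 and chr1:171018776-171018925 for Fcgr4, both on the plus strand, and chr1:173741810-173741959 for Ifi207, chr1:173913047-173913196 for Ifi211 and chrX:9469325-9469474 for Cybb, all on the minus strand.

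At least 2-fold higher in icKO EAE than in icKO naive were 858 of the 16471 genes (5.21%), and at least 2-fold lower were 173 (1.05%). The median difference over all measured genes was 0.04, with the central part of the distribution between -0.18 and 0.30. Of the genes past 2-fold, 83.2% were on the higher side. That split depended on the scaling of the arrays, since quantile normalization gave 553 higher and 284 lower genes (66.1% higher) and loess gave 73.2% higher. Past 4-fold were 132 genes on the higher side (0.801%) and 5 on the lower side (0.0304%).

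The threshold on brightness shaped these counts. It was passed on both arrays by 14165 genes, on the EAE array alone by 1153 and on the naive array alone by 1153. Of the 858 higher genes, 143 had passed on the EAE array alone, which required them to be higher there. Likewise, 59 of the 173 lower genes had passed on the naive array alone, which required them to be lower in EAE. A gene below the threshold on the naive array was not shown to be above background there, so for such a gene, Arg1, Fn1 and Cxcr4 among them, the difference gives a direction and an uncertain size. Predicted and clone-named genes, small RNAs, pseudogenes, chemosensory receptors, antigen receptor segments and ribosomal protein genes made up 7675 of the measured genes, and their probe sets often share sequence with other loci. They supplied 550 of the 858 higher genes (7.17% of their number) and 135 of the 173 lower ones (1.76%) and were counted without being named. Among the other 8796 genes, 308 (3.5%) lay 2-fold or more above naive and 38 (0.432%) 2-fold or more below it. Without the threshold these shares were 1.83% and 0.228% of 17071 genes. Gene lists are described below by all members that had a named probe set on the array, dim members included, and are to be read against these shares. Counts of members merely above or below naive can be set beside 54.7% and 45.1% of all measured genes. Those shares leave out genes below the threshold, which the list counts include, and the shares without it were not computed. Without the threshold the median difference of the 17071 genes was -0.01.

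**Figure D1:**
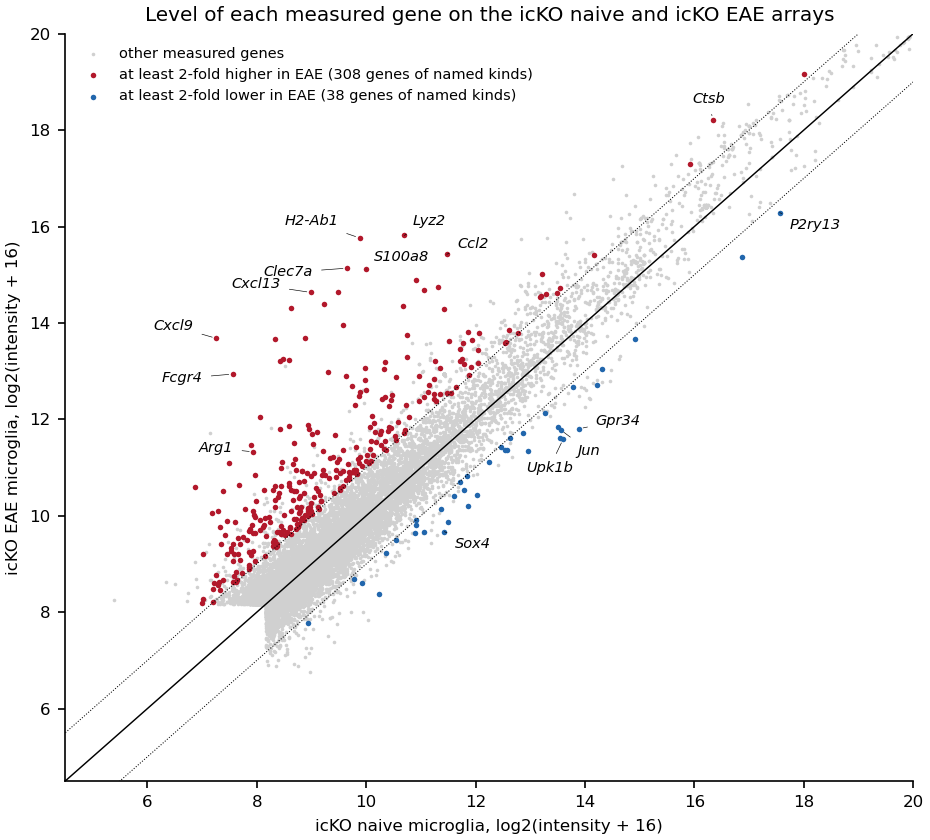
Level of each of the 16471 measured genes on the icKO naive array (horizontal) and the icKO EAE array (vertical), both as log2(intensity + 16); the solid line marks equal levels, the dotted lines a 2-fold difference, and the empty lower left corner is where the brightness threshold removed genes. The 308 red genes reach much farther from the line (Cxcl9 by 6.42) than the 38 blue genes do (Gpr34 by -2.09).

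MHC class II genes, whose products show peptides to helper T cells, were among the genes with the largest differences. H2-Ab1, the beta chain of I-A, lay at 9.88 on the naive and 15.76 on the EAE array, 59.1-fold higher. H2-Eb1 lay at 8.62 and 14.30, a 51.4-fold difference. H2-Aa, the alpha chain of I-A, lay at 8.60 and 13.24, 25.01-fold higher. The peptide exchange chains H2-DMb1 (a difference of 1.77) and H2-DMa (1.59), the exchange inhibitor H2-Oa (1.27) and the lysosomal thiol reductase Ifi30 (3.44) were also more than 2-fold higher. The other inhibitor chain, H2-Ob, lay at 9.94 and 9.51, and Ciita, the transactivator of the class II genes, stayed dim at 7.98 and 8.32. In all, 7 of the 11 members on the array were at least 2-fold higher and 0 were lower by as much, with a median of 1.59.

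Class I genes and the machinery that loads class I molecules were higher as a whole list, by smaller amounts. All 14 members on the array lay above their naive level, 8 of them at least 2-fold, and the median was 1.05. H2-K1 lay at 10.74 and 13.74, and H2-D1 at 11.42 and 14.30, and these classical class I heavy chains gave the list's largest differences. The peptide transporter subunit Tap1 differed by 1.84 and its partner Tap2 by 0.03. Psmb8 and Psmb10, subunits of the immunoproteasome, both differed by 1.05. B2m, the light chain of class I, lay at 17.998 and 19.17, although quantile normalization reduced its difference from 1.17 to 0.55.

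Genes known to respond to interferon-gamma, the cytokine of T helper 1 and natural killer cells, followed. Guanylate-binding proteins, GTPases that act on intracellular pathogens, were higher for all 6 that had a named probe set: Gbp2 by 3.56, Gbp7 by 2.52, Gbp4 by 2.45, Gbp8 by 2.02, Gbp9 by 1.51 and Gbp3 by 1.49. Iigp1, an immunity-related GTPase, lay at 8.63 and 10.53, whereas Irgm2 of the same family lay at 9.46 and 9.63. The receptor chain Ifngr1 differed by -0.32 and Irf1, a transcription factor of the pathway, by 0.25. Of 15 members on the array 9 were at least 2-fold higher and 0 lower, with a median of 1.49.

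The list of genes responding to type I interferon had no member below its naive level, with 25 of 25 higher. Its measured members were higher for 22 of 22, against 54.7% of all measured genes. Of the 25, 12 were at least 2-fold higher, and the median was 0.92. Oas2 and Oas1a, which make the second messenger that activates RNase L, gave the largest differences (2.44 and 2.41). Stat2, the transcription factor specific to this pathway, lay at 8.71 and 10.94, and Usp18, its feedback inhibitor, at 7.96 and 9.96. Several canonical members differed little: Isg15 by 0.29, Ifit3 by 0.05 and Mx2 by 0.28. The p200 family of DNA-sensing proteins went further. Ifi204 lay at 9.22 and 14.39, 36.04-fold higher, Ifi211 at 8.43 and 13.21, and Ifi207 at 8.47 and 13.25, while Aim2, the inflammasome sensor of the family, differed by 0.11. Of the 7 members on the array 6 were at least 2-fold higher, with a median of 2.68. The p200 genes are related genes of one cluster, and probe sets of the most similar ones can share signal, so they are not separate observations.

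The promoters shown above can be set beside these groups. GAAANNGAAA, searched on both strands of the 250 bases before the start, was found in 936 of the 27025 genes of the RefSeq promoter table (3.46%) and in 3.47% of the 7209 measured genes that had an entry and could be named. It was found in 37 of the 242 at least 2-fold higher genes with an entry (15.3%), in 12 of the 64 at least 4-fold higher ones (18.8%) and in 1 of the 27 at least 2-fold lower ones. By list it was found in 6 of 10 interferon-gamma genes, 7 of 16 type I interferon genes and 4 of 6 p200 genes. ATTGG, a much more frequent string that matches by itself in 37.5% of all genes of the table, was searched in the same way and found in 8 of 9 class II genes and 8 of 12 class I genes, against 38.4% of the at least 2-fold higher genes. The same string was found in 9 of 16 homeostatic genes and 5 of 10 interferon-gamma genes, so it was not limited to the MHC genes. TGANTCA, the core bound by AP-1, was found in 9.09% of the higher genes, 5.87% of the measured genes that could be named and 7.82% of the table. A match records the letters and not occupancy. H2-Ab1 and Ifi204 had no entry in the table.

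Chemokines were among the genes with the largest differences, but not as a class. Cxcl9, an interferon-gamma-induced ligand of the T cell receptor Cxcr3, lay at 7.26 on the naive and 13.68 on the EAE array, a difference of 6.42. Its naive level was below the brightness threshold, so the size of that difference is uncertain, although it ranked first among the 15 named genes. Cxcl13, the ligand that draws B cells, lay at 8.99 and 14.63, 49.96-fold higher. Cxcl16, a ligand of Cxcr6, lay at 10.34 and 13.19, and Cxcl10 at 7.79 and 10.14. Cxcr4, the receptor for Cxcl12, lay at 6.86 and 10.59. Cx3cr1, the fractalkine receptor that marks microglia, stayed at 18.27 and 18.15. The other CXC ligands lay near or under the brightness threshold, so that 5 of 16 members on the array were at least 2-fold higher and the median over the 16 was 0.05, against 2.36 over the 9 measured members.

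Monocyte-attracting CC chemokines followed the same uneven pattern. Ccl2 lay at 11.47 and 15.42, a difference of 3.95, and Ccl8, Ccl12 and Ccl7 differed by 2.07, 1.86 and 1.85. Ccl3 and Ccl4, abundant products of activated microglia, differed by 0.68 and 0.72, and quantile normalization brought Ccl3 to 0.07. Ccl9 was lower by 0.54 on the log2 scale, at 10.38 and 9.85. Over the 17 members on the array 5 were at least 2-fold higher and 0 lower, with a median of 0.30.

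Among cytokines, Il1b lay at 8.42 and 11.79, a difference of 3.37, and its receptor antagonist Il1rn at 7.85 and 9.69. Tnf lay at 8.49 and 10.02, and Il1a at 13.29 and 14.59. The inflammatory caspases Casp4 and Casp1 were higher by 1.39 and 1.13. Il6, Il12b, Il23a and Nlrp3 differed by 0.08, 0.30, 0.06 and -0.08, and Nos2, inducible nitric oxide synthase, lay below the threshold on both arrays. This list of 20 genes had 6 members at least 2-fold higher and 0 lower, with a median of 0.40. NF-kB subunits and feedback genes had no member past 2-fold among 15 on the array (median 0.20), with the inhibitor Nfkbia at 0.92 as the largest difference.

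Arg1, arginase 1, a gene of alternatively activated and of monocyte-derived macrophages, lay at 7.94 on the naive and 11.32 on the EAE array. Chil3, a chitinase-like protein of the same setting, lay at 7.97 and 10.85. Canonical members of the alternative activation list lay closer to naive: Retnla differed by 0.04, Mrc1 by -0.18, Cd163 by -0.13 and Clec10a by 0.07, and the median of the 15 on the array was 0.07. Acod1, which makes itaconate from an intermediate of the citric acid cycle, lay at 8.45 and 10.99. Cybb lay at 8.33 and 13.67, a 40.3-fold difference, while the cytosolic oxidase subunits Ncf1 and Ncf4 differed by 0.29 and 0.07 and the regulatory GTPase Rac2 by 2.33.

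**Figure D2:**
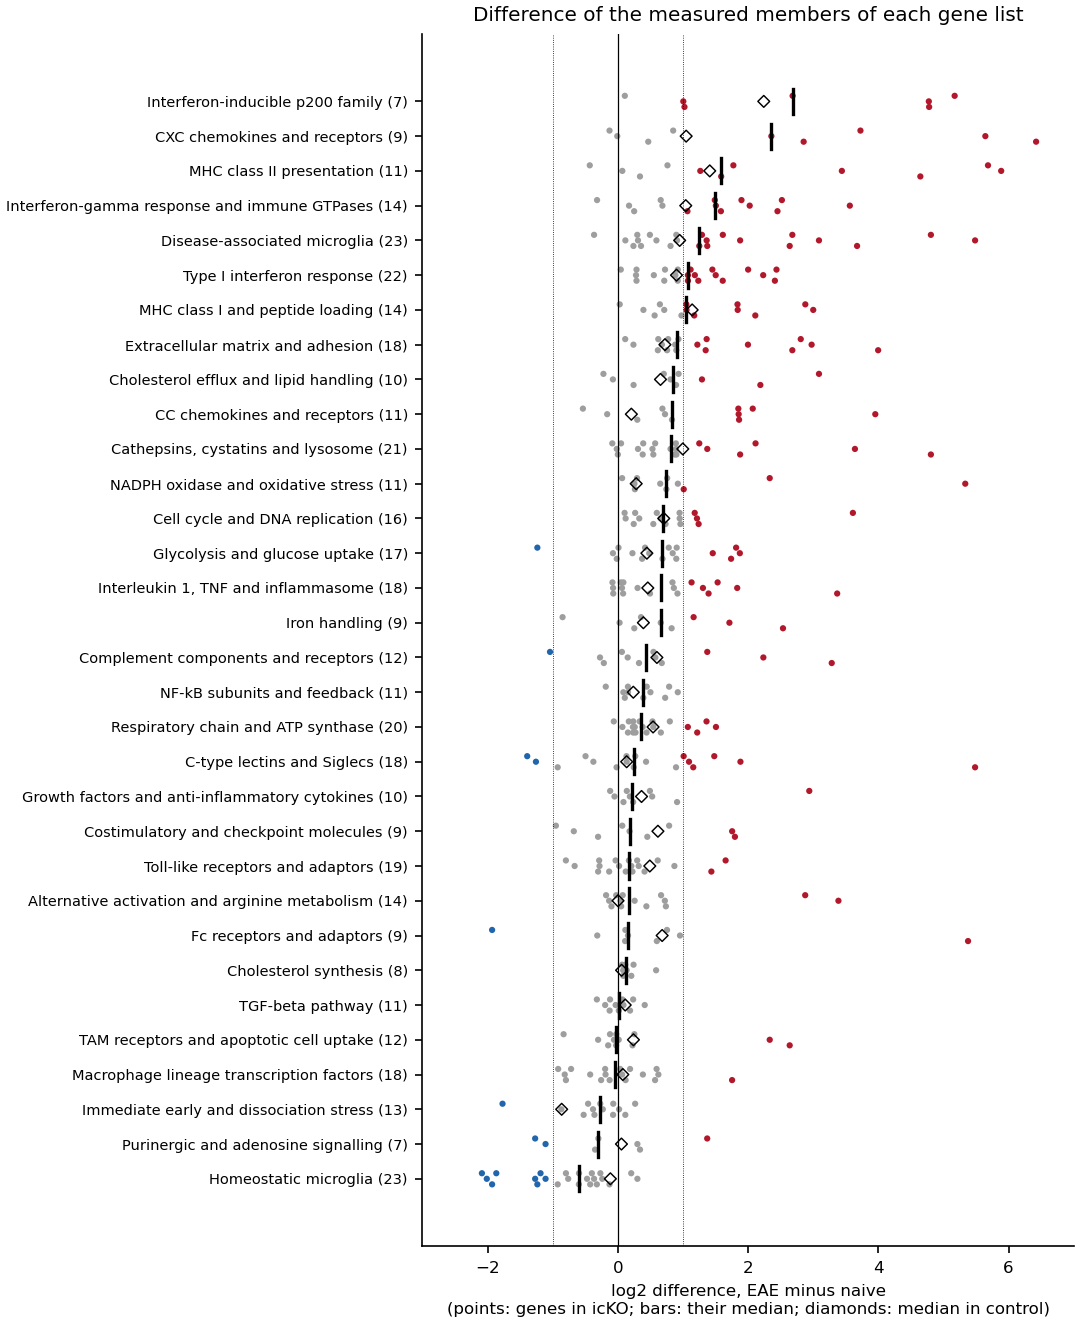
Difference (icKO EAE minus icKO naive, log2 scale) of each measured member of the 32 gene lists with 3 or more measured members, as points, with their median as a bar and the median of the same genes in the control pair as a diamond; numbers in brackets count measured members and dotted lines mark a 2-fold difference. The p200 family has the highest median (2.68) and the homeostatic list the lowest (-0.60), and several lists (CXC chemokines, Fc receptors) hold members both far above 2-fold and near 0.

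Genes known from disease-associated microglia, the state described around plaques and lesions, were mostly higher. Clec7a, the beta-glucan receptor dectin-1, lay at 9.65 and 15.14, 44.8-fold higher. Cst7, a cystatin that inhibits cathepsins, lay at 8.88 and 13.69. Lilrb4a, an inhibitory receptor, lay at 10.67 and 14.35, Apoe, the lipid carrier, at 9.98 and 13.07, and the integrin Itgax at 9.02 and 11.70. The TAM receptor Axl lay at 9.10 and 11.74, whereas the microglial TAM receptor Mertk differed by -0.30. Trem2, the lipid receptor upstream of this state, lay at 11.81 and 11.44, and its adaptor Tyrobp at 16.89 and 17.00. Of the 23 members on the array 12 were at least 2-fold higher and 0 lower, and Trem2 was the 1 member below its naive level.

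Lyz2, lysozyme of myeloid cells, lay at 10.70 and 15.82, 34.8-fold higher. Fc receptors were split. Fcgr4 lay at 7.56, below the brightness threshold, on the naive and at 12.94 on the EAE array. The inhibitory receptor Fcgr2b and the high-affinity receptor Fcgr1 were higher by 0.95 and 0.75, and Fcgr3 by 0.11. The microglial Fc receptor-like gene Fcrls lay at 13.54 and 11.61, a 3.81-fold lower level. Lectin receptors were split in the same way, with Clec4d (1.88), Clec4e (1.16) and Clec4n (1.09) higher and Clec4a3 (-1.39) and Clec4a2 (-1.26) lower.

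Lysosomal genes were higher by moderate amounts, with 6 of 22 members on the array at least 2-fold higher, 0 lower and a median of 0.69. Cstb, the cystatin of the cytosol, lay at 11.05 and 14.69, and the cathepsins Ctsc, Ctsb, Ctsl and Ctsz differed by 2.11, 1.88, 1.37 and 1.25. Ctss, the microglial cathepsin, lay at 18.62 on both arrays. Its values there were equal, and the origin of that tie was not tested. Complement was uneven: C4b lay at 8.59 and 11.87, Cfb at 8.30 and 10.53 and C1qb at 15.92 and 17.30, while C1qa differed by 0.15 and the receptor C5ar2 was lower, at 12.47 and 11.43. Quantile normalization brought the difference of C1qb to 0.74.

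The extracellular matrix list had 8 of 21 members at least 2-fold higher and 0 lower, with a median of 0.88, and 7 had passed the threshold on the EAE array alone. Fn1, fibronectin, lay at 8.06 and 12.05. Vim, vimentin, lay at 7.67 and 10.64, and the membrane protease Mmp14 at 8.38 and 10.38. In glucose metabolism the transporter Slc2a1 (1.87), pyruvate kinase Pkm (1.82), Tpi1 (1.74) and the hypoxia factor Hif1a (1.46) were higher, and the fructose transporter Slc2a5, a microglial gene, was lower by 1.24 on the log2 scale. The proliferation antigen Mki67 lay at 7.49 and 11.09, and all 23 cell cycle genes on the array were above their naive level. Only 4 of them were past 2-fold and 9 had passed the threshold on the EAE array alone, and their median was 0.34 over the 23.

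Homeostatic microglial genes formed the list with the lowest median, -0.60, and 8 of its 23 members on the array were at least 2-fold lower and 0 higher. Gpr34, a receptor for lysophosphatidylserine, lay at 13.89 on the naive and 11.80 on the EAE array, 4.25-fold lower, and this was the lowest difference among the bright named genes. Upk1b lay at 13.60 and 11.59. P2ry13 and P2ry12, the ADP receptors that guide microglial processes, lay at 17.56 and 16.29 and at 13.78 and 12.67. Gpr165, Slc2a5, Ecscr and Fcrls completed the 8. Sall1, the transcription factor that maintains microglial identity, lay at 13.33 and 12.53, a difference of -0.80. Tmem119 and P2ry6 were the members above their naive level, by 0.21 and 0.30, and Cx3cr1, Csf1r and Sparc differed by less than 0.30.

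Other genes of this direction came from outside that list. Jun, a subunit of AP-1, lay at 13.55 and 11.78, a difference of -1.77, while Fos differed by 0.27. Sox4, a transcription factor, lay at 11.43 and 9.67, and Maf, Mef2a and Mef2c, transcription factors of mature microglia, were lower by 0.92, 0.82 and 0.72 on the log2 scale. Macrophage lineage transcription factors were not lower as a list. Of 21 members on the array 10 lay above and 11 below naive, with a median of -0.02. Id2 (1.75) was at least 2-fold higher and 0 members were at least 2-fold lower. Hpgd, which inactivates prostaglandins, lay at 13.50 and 11.83, and Agmo, which cleaves ether lipids, at 11.86 and 10.19. Rgs2, a regulator of G protein signalling, lay at 16.88 and 15.36, and the sialyltransferase St3gal6 at 12.96 and 11.34. Bank1, H1f2, Fam102b and Prps1l1 made up the rest of the 15 lowest, with differences from -1.63 to -1.31.

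Components of the TGF-beta pathway, which maintains the homeostatic state, had no member past 2-fold among 15 on the array, with a median of 0.01. Tgfbr1 lay at 14.11 and 13.79 and Tgfb1 at 10.18 and 10.26. Tgfbi, a matrix protein that TGF-beta induces, lay at 8.94 and 11.88. The cholesterol synthesis list likewise had no member past 2-fold (median 0.10 over 14), whereas Fabp5, a fatty acid carrier, and Ch25h, which makes an oxysterol, were higher by 2.19 and 1.29.

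**Figure D3:**
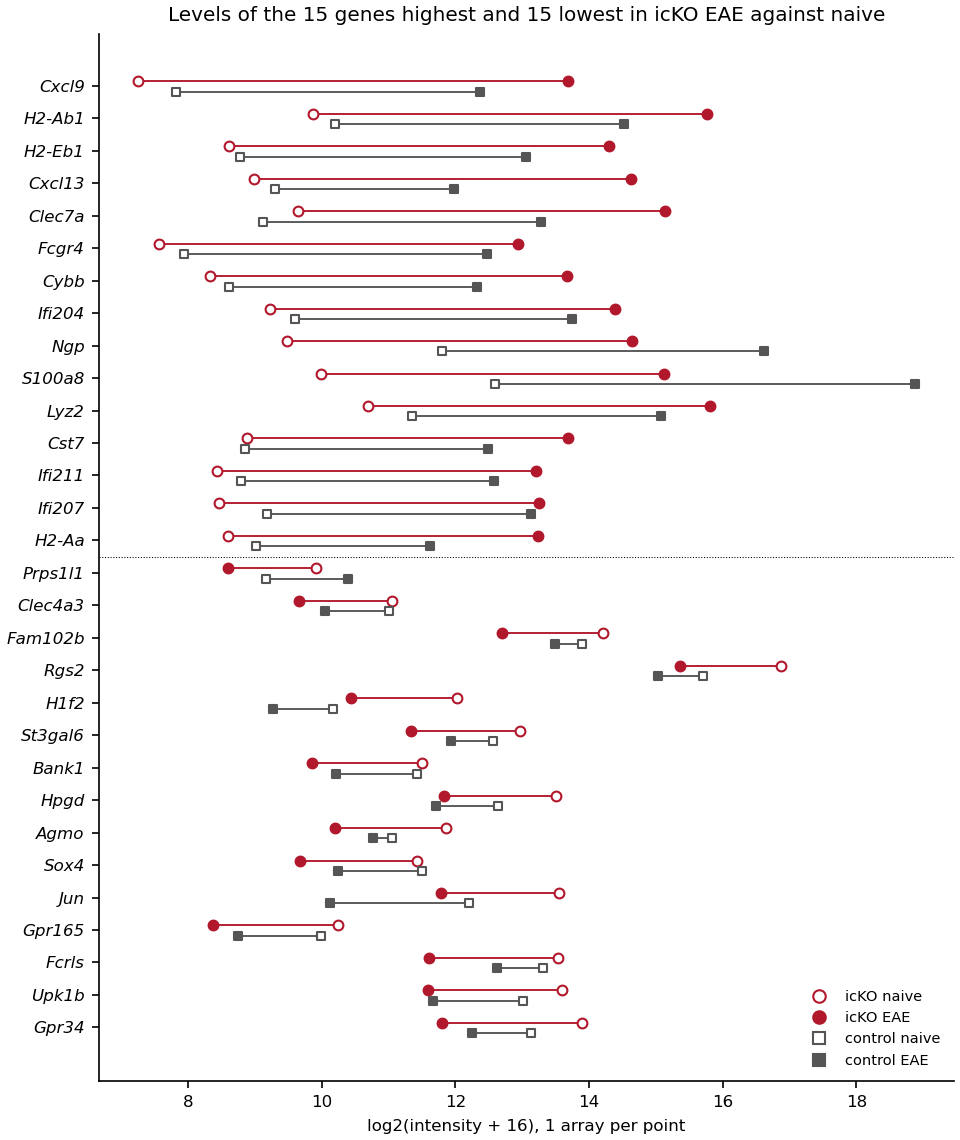
Level, as log2(intensity + 16), of the 15 genes with the highest and the 15 with the lowest difference in icKO (above and below the dotted line), on the icKO naive, icKO EAE, control naive and control EAE arrays, 1 array per point. Cxcl9 runs from 7.26 to 13.68 in icKO, S100a8 reaches farther on the control EAE array (18.88) than on the icKO EAE array (15.12), and Prps1l1 runs in opposite directions in the 2 genotypes.

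Markers of cells other than microglia differed between the 2 arrays as well. Neutrophil genes, among them the granule and calcium-binding proteins Ngp (9.48 and 14.65), S100a8 (9.997 and 15.12) and S100a9 (10.92 and 14.90), were at least 2-fold higher for 8 of 12 members on the array. Their summed intensity was 7129 on the icKO naive and 103949 on the icKO EAE array, while Ly6g lay at 9.33 and 9.14 and the primary granule genes Elane and Mpo were below the threshold on both. For monocytes and the macrophages that derive from them, 6 of 9 members were at least 2-fold higher, among them Ly6c2 (9.57 and 13.96) and Ccr2 (8.06 and 9.91), and the summed intensity was 2839 and 28144. Of the 8 measured monocyte markers 5 had passed the threshold on the EAE array alone, which required them to be higher there. Arg1, Chil3, Fn1, Lyz2, Ccr2 and the MHC class II genes are also expressed by monocyte-derived cells. The part of such cells in these and the other higher genes was not tested.

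Summed over the 7 microglial markers on the array, the intensity was 537089 on the naive and 425476 on the EAE array, with 1 member, P2ry12, at least 2-fold lower and a median difference of -0.27. In these bulk samples, fewer microglia and less RNA of a gene per microglial cell cannot be told apart, which holds for every lower gene above. T cell markers had 0 of 10 members past 2-fold, with Cd3e highest at 8.15 and 9.09 and a summed intensity of 3229 and 3727. Dendritic cell, natural killer, B cell, mast cell, astrocyte, oligodendroglial, neuronal and endothelial markers likewise had 0 members past 2-fold. Among border-associated macrophage markers Ms4a7 (7.74 and 9.56) was past 2-fold, and Clec12a and F13a1 were higher by 0.89 and 0.49. The 5 lower measured markers, Lyve1, Pf4 and Mrc1 among them, differed by no more than 0.18 in size.

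**Figure D4:**
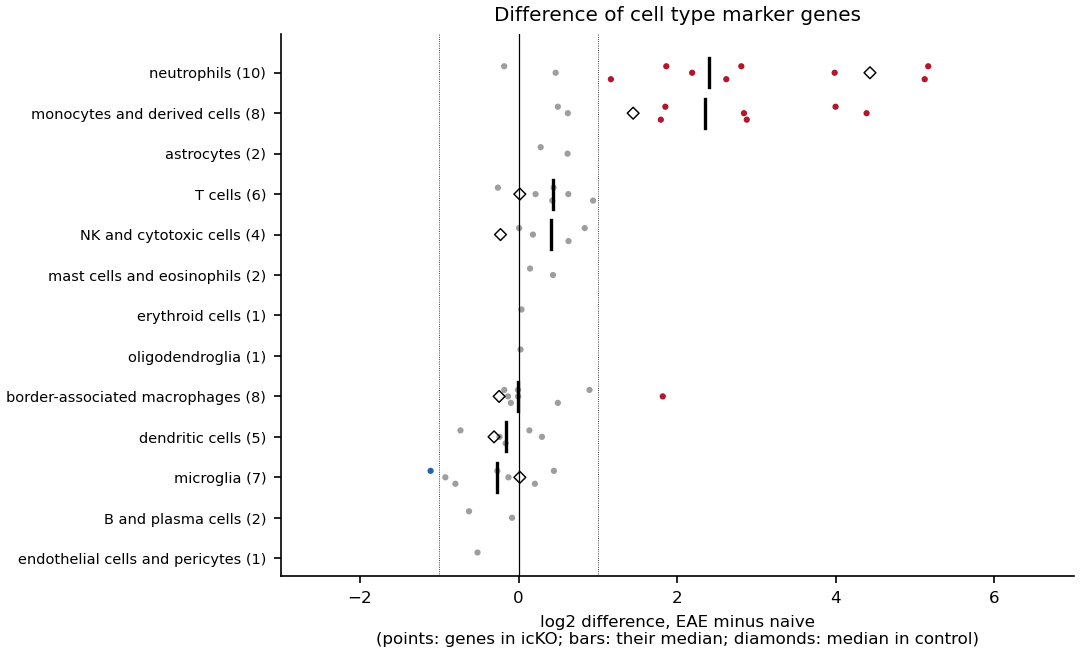
Difference (icKO EAE minus icKO naive, log2 scale) of the measured markers of 13 cell types, 1 point per gene, with a bar for the median of lists of 3 or more and a diamond for the median of the same genes in the control pair; dotted lines mark a 2-fold difference. Neutrophil and monocyte markers lie farthest to the right (medians 2.40 and 2.35 over measured members, 2.03 and 1.85 over all members on the array). Of the 8 measured monocyte markers 5 had passed the threshold on the EAE array alone. The control median of the neutrophil markers (4.43) lies beyond the icKO one.

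The control pair, which shares no array with the icKO pair, placed 826 genes 2-fold or more above naive and 509 as far below it (5.01% and 3.09%) of the same 16471. Among the 8796 genes of nameable kinds, 308 (3.5%) were 2-fold or more higher in each pair, and 198 of them were shared (64.3% of each list). Of the 308 icKO genes, 302 (98.1%) lay above naive in control too. For the lower genes, 6 of the 38 in icKO (15.8%) were among the 40 in control (15%), although 36 of the 38 (94.7%) lay below naive in control. Over all measured genes, 756 of the 858 higher genes (88.1%) lay on the same side of naive in control, and 12 were 2-fold or more on the other side. Of the 173 lower genes, 123 (71.1%) lay on the same side and 6 were 2-fold or more on the other. The median control difference over the 16471 genes was 0.04, so either side of naive was common there by itself. The naive arrays themselves differed at 2-fold or more for 47 genes higher and 256 lower in icKO (0.285% and 1.55%). No difference between the genotypes was tested, since each rested on 4 single arrays.

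Some genes had a larger difference in icKO than in control. Cd69, an early activation antigen of leukocytes, lay at 7.38 and 10.52 on the icKO arrays and at 8.12 and 8.19 on the control arrays, so only the icKO EAE level was clearly above the brightness threshold and its rank among these genes is uncertain. Cxcl13 differed by 5.64 in icKO and 2.67 in control, Arg1 by 3.39 and 0.47, Fn1 by 3.997 and 1.29, Cxcr4 by 3.72 and 1.05, and Il1b by 3.37 and 1.23. H2-Aa completed the signalling and antigen presentation genes of this kind, at 4.64 and 2.59.

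The immediate early genes Fos and Dusp1 entered the same set with negative differences in control (-2.22 and -2.64). Fos lay at 11.51 and 11.77 in icKO and at 10.61 and 8.40 in control, and Dusp1 at 17.86 and 17.48 in icKO and at 17.19 and 14.56 in control. Dusp1 was thus below naive in icKO too, with a difference of -0.38, or -1.08 after quantile normalization. Immediate early genes are known to respond to tissue dissociation, and the list's median was -0.27 in icKO and -0.86 in control over 13 measured members. The part of handling in these values was not tested. The remaining gene, Csprs, belongs to a multicopy family and its value is uncertain.

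At the other end, 4 of the 10 genes with the smallest icKO relative to control difference were neutrophil markers, Ltf, Retnlg, Camp and Mmp8. Wfdc21, a secreted protein of the whey acidic protein family, lay at 9.58 and 11.36 in icKO and at 9.54 and 14.86 in control, and Ltf at 8.86 and 10.72 in icKO and at 9.13 and 13.69 in control. Retnlg, Camp and Mmp8 differed by 2.19, 2.62 and 2.81 in icKO and by 4.57, 4.90 and 4.31 in control. The summed intensity of neutrophil markers in the control pair was 26856 and 901745, against 7129 and 103949 in icKO, so both the naive and the EAE level were higher in control. Agmo, Ndufb4b, Atp5mpl, Nav3 and Prps1l1 completed the set. Homeostatic genes had a median of -0.60 in icKO and -0.11 in control, with P2ry12 at -1.11 and -0.12, Slc2a5 at -1.24 and -0.11 and Siglech at -0.92 and -0.04. Their median level, naive first, was 13.54 and 12.10 in icKO and 13.13 and 12.62 in control. The icKO array was thus higher at naive as well as lower in EAE, and both entered the contrast.

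**Figure D5:**
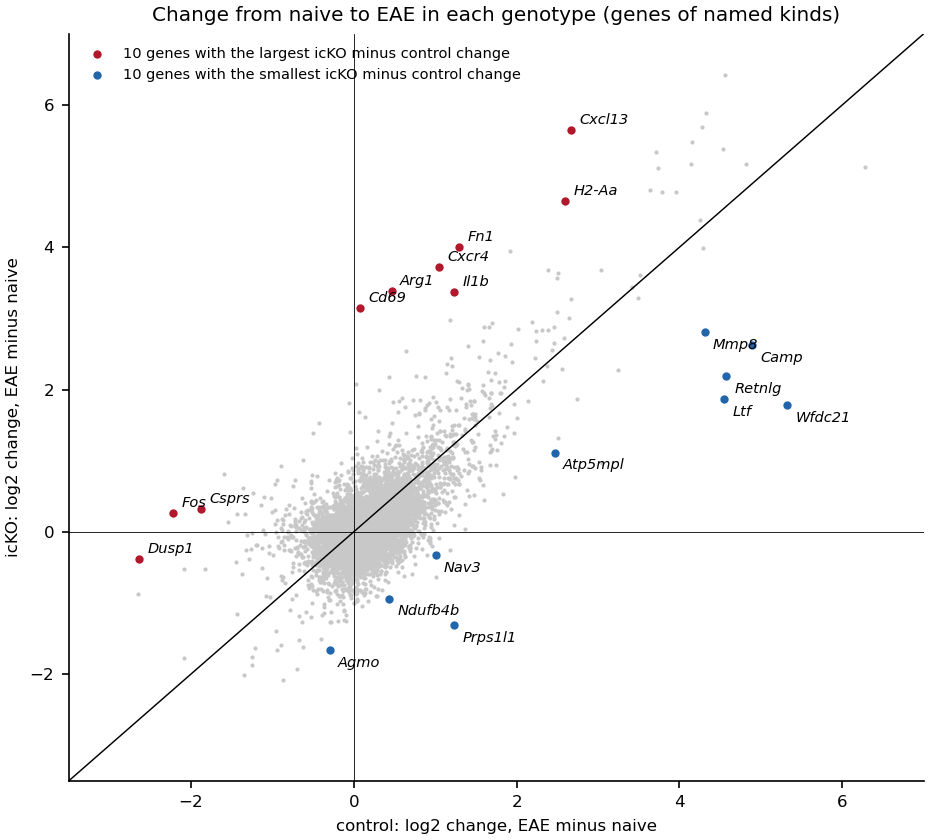
Difference between EAE and naive in control (horizontal) and in icKO (vertical), log2 scale, for the 8796 measured genes of nameable kinds; the diagonal marks equal differences, and red and blue mark the 10 genes farthest above and below it among bright genes. Cd69 and Arg1 lie near 0 in control (0.07 and 0.47) and above 3 in icKO (3.14 and 3.39), and Wfdc21 lies at 5.32 in control and 1.78 in icKO.

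The 2 further icKO arrays give levels for the same genes in other states. On the icKO EAE array with iguratimod Cxcl9 lay at 12.41, Cxcl13 at 14.53, H2-Ab1 at 14.60 and Clec7a at 14.24, and on the icKO EAE p50 array they lay at 9.005, 11.87, 13.13 and 13.03. Arg1 lay at 8.69 and 8.37 on those arrays, against 11.32 on the icKO EAE array. Gpr34 lay at 12.44 and 13.38, and P2ry12 at 12.79 and 13.77, against 11.80 and 12.67 on the icKO EAE array. Among the 15 highest genes only Ngp and S100a8 lay higher with iguratimod than on the icKO EAE array. They lay at 14.78 and 15.40, against 14.65 and 15.12, and at 11.27 and 11.31 on the p50 array. All these genes had been chosen for their difference between the EAE and naive arrays, so their distance from naive elsewhere is a description only.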

How the data were processed

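Microglial RNA was isolated with TRIzol and a column kit, amplified and biotinylated with a pico-input kit, and hybridised to Affymetrix whole-transcript arrays, per the labels' protocols. Affymetrix Expression Console is named in the submitters' processing notes. Per array, the authors deposited intensity values on a linear scale, with maxima between 969237 and 999952 and 2.02% to 2.23% of values above 65535, the limit of a 16-bit scanner. The maximum of 999952 was shared by 4 arrays, icKO EAE and control EAE among them, and the part of such a shared ceiling in the differences of the brightest genes was not tested. The summary method and normalization behind them are not given in the sources used here.

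The table had 65956 rows: 31258 with a single gene symbol, 1492 with several, which were not used, and 33206 that remained unnamed. Symbols were updated through RefSeq records of GRCm38.p6 in 1152 cases, and 441 genes with several probe sets were represented by the brightest. Values were used as log2(intensity + 16), which understates differences of dim genes, with no further normalization. Python 3.11.15, numpy 2.4.6, pandas 2.3.3, statsmodels 0.14.6 and matplotlib 3.10.9 were used, and the counting was tested on simulated data.

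Genes named without a list were the 15 highest and 15 lowest differences, and the 10 largest and 10 smallest icKO minus control differences, among genes whose brighter array lay above the 60th percentile of measured genes, leaving out the kinds that were only counted. The members and lists were chosen with earlier results of these data known. Alternatives changed the added constant, the brightness threshold, the scaling, the treatment of several probe sets and the fold threshold. The targeted gene is not reported here.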

Additional observations from a re-analysis of the deposited data

Results flagged for a closer look

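Prps1l1, a phosphoribosyl pyrophosphate synthetase gene best known from testis, was the named gene that lay at least 0.5 below naive in icKO EAE and at least 0.5 above naive in control EAE on the log2 scale. It lay at 9.92 and 8.60 on the icKO naive and EAE arrays and at 9.16 and 10.39 on the control naive and EAE arrays, so its differences were -1.31 and 1.23 and the icKO difference minus the control difference was -2.54. With 1 array per group this difference between the genotypes was not tested. On the icKO EAE array with iguratimod and the icKO EAE p50 array it lay at 9.84 and 9.35. No median of a gene list met the same rule.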

How the results depend on the processing

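Of 312 list medians recomputed under 8 alternatives, 308 moved by less than 1.5-fold and were not counted as reversed. A change of sign was not counted for the smallest medians, such as that of the TGF-beta pathway list (0.01). The exceptions were the CXC chemokine median (0.0452 with no brightness threshold), the border-associated macrophage median (0.89 with the threshold at the 70th percentile) and the Toll-like receptor median (0.17), which was -0.0605 after quantile normalization and -0.027 after loess. Of 3613 recomputed gene differences, 13 moved by more than 1.5-fold, 12 of them under quantile normalization. Among the 12, Tyrobp, Ctsh, Ly86 and Lgmn went from above to below naive. For genes a reversal was counted only where the main difference was at least 2-fold, so smaller differences could change sign without being counted. Quantile normalization gave 553 higher and 284 lower genes. A 1.5-fold threshold gave 2115 and 803, and a 4-fold threshold 132 and 5. No paired analysis was possible because each group held 1 array, so leaving out an array left nothing to compare. Dim genes are limited by signal over background, which was not measured here.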

Other observations

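A few genes outside the lists were chosen after their values were seen, from those next in rank by difference, and stand for no group. Hpgds, the hematopoietic prostaglandin D synthase, lay at 14.92 on the icKO naive and 13.67 on the icKO EAE array, a difference of -1.25, and the prostaglandin-degrading Hpgd had a difference of -1.66. Pla2g7, which hydrolyses platelet-activating factor, lay at 7.93 and 10.11, and Naaa, which hydrolyses palmitoylethanolamide, at 10.32 and 13.05. Hcar2, the receptor for niacin and beta-hydroxybutyrate, lay at 9.98 and 12.82. Tspo, the mitochondrial protein bound by ligands used to image microglial activation, lay at 8.14 and 10.53. Pde3b, a cyclic nucleotide phosphodiesterase, lay at 14.31 and 13.05, and Abca9, a lipid transporter, at 13.28 and 12.13.

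Ribosomal protein genes and their pseudogenes, which share probe sequences, were counted as a group and not named. The group was taken by symbols that begin with Rpl or Rps, so it can include other genes and miss pseudogenes under other names. Of the 252 measured, 106 were at least 2-fold higher in icKO EAE than in icKO naive and 0 at least 2-fold lower. The higher share was 5.21% over all measured genes and 7.17% over the kinds counted without being named. The median difference of the 252 was 0.85 in icKO and 1.20 in control. The respiratory chain list had a median of 0.36 in icKO and 0.54 in control, with Cox7a2 (1.51), Cox5a (1.36), Uqcrq (1.22) and Atp5b (1.07) past 2-fold of its 20 members.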
